A study of Rattus norvegicus with 12 samples.

Results

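The genes described here are 41 genes that drive cell division and DNA copying, taken by name from their known role. They comprise 7 genes of G1 and G1/S control, 12 of S phase and 22 of G2 and mitosis. Of the 41, 38 were measured by a probe set that names that gene alone, out of 12853 genes measured in this way, and all 38 passed the filter on low values. No probe set used here names Cdc6 or Tpx2, and the 2 probe sets for Rrm2 name Rrm2l1 as well, so these 3 genes are outside the counts below.

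The study asked how hypobaric hypoxia and lipopolysaccharide (LPS, a component of the outer membrane of Gram-negative bacteria) act alone and together in acute lung injury. Total RNA came from the cells of bronchoalveolar lavage fluid (BALF), which are washed out of the airways and alveoli, of male Sprague-Dawley rats 8 weeks old, and was measured on 12 Affymetrix arrays, 3 in each of 4 groups. CTL rats received saline through the tail vein and stayed in normoxia. LPS rats received LPS at 0.5 mg/kg through the same route. HPO rats spent 6 h in a chamber at 405.35 mmHg, which corresponds to an altitude of 5000 m or 11.2% oxygen. COMB rats received the same dose of LPS first and then the same stay in the chamber. All animals went without food and water during the experiment. Each array carried RNA pooled from several rats, and the pools are named below by the numbers of their rats. Values are always given in the order CTL rats 1, 3, 4, then 5, 6, 7, then 8, 9, 10, LPS rats 2, 3, 6, then 5, 7, 11, then 8, 9, 10, HPO rats 7, 8, 9, then 2, 4, 11, then 3, 5, 12, and COMB rats 2, 3, then 10, 11, then 12, 13, 14. The labels give these numbers as biological replicates, and they were taken here as rats. They list 2 numbers for both of the first COMB pools, whereas the paper describes 3 animals in each pool. Since RNA was pooled, a p-value measures the spread between pools, not between rats.

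In a dividing cell, D-type cyclins with Cdk4 and cyclin E with Cdk2 inactivate the retinoblastoma protein, which frees E2F factors to switch on genes of DNA synthesis. The MCM helicase then opens the DNA at licensed origins and Pcna clamps the polymerases to it, after which cyclin A and cyclin B with Cdk1 and the Aurora and Polo kinases carry the cell through mitosis. Alveolar macrophages, the main cell of lavage fluid from a healthy lung, are mostly at rest between divisions and keep up their own number by local division.

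The label of the cells was checked against marker genes. Of 15 alveolar macrophage markers, 12 were measured, and their summed intensity was 30820 to 33779 in CTL, 32775 to 34899 in LPS, 32394 to 33189 in HPO and 26728 to 30438 in COMB. Their defining member Mrc1, the mannose receptor, stood at 5985 to 6401 in CTL and 5404 to 6946 in COMB. Of the 12, however, 5 were lower in COMB than in CTL (limma, adjusted p under 0.05), namely Cidec (-2.42 on the log2 scale), Olr1 (-1.20), Lpl (-0.58), Krt79 (-0.55) and Cd9 (-0.41), and Car4 was higher (3.18), against 11% of all genes in each direction. Other cells were present as well. The 16 measured markers of airway epithelium of 18 summed to 7913 to 11541 in CTL, 17987 to 20203 in LPS, 19006 to 20519 in HPO and 26870 to 35525 in COMB, with the secretory cell gene Scgb1a1 at 4107 to 6353 in CTL and 9489 to 10726 in COMB. The 10 measured neutrophil markers of 15 summed to 3499 to 6081, 5143 to 5937, 2825 to 3332 and 10439 to 16618 in the same order of groups. The 15 measured T and NK cell markers of 18 summed to 713, 3764 and 1298 in the CTL pools, 768 to 1160 in LPS, 981 to 1338 in HPO, and 1445, 9117 and 7832 in the COMB pools. In the neutrophil list 5 of 10 genes were higher and 1 lower in COMB than in CTL, and the higher ones numbered 2 of 15 in the T and NK cell list and 15 of 16 in the airway epithelium list. In the T and NK cell sum the pool of COMB rats 2, 3 was the low one of its group. In most genes of S phase and mitosis COMB rats 10, 11 stood above both others, and results on COMB are also given without this pool. It was singled out by the values of these same genes, after seeing the data, and not by the markers. In RNA from mixed cells, fewer cells of a type and less RNA per cell cannot be told apart, and the part of these shifts in the results below was not tested.

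Genes of mitosis and of S phase are known to carry different short words in their promoters, so a few promoters are shown here with these words marked. Promoters from 250 bases before to 50 bases after the start of the gene were found in RefSeq (build GRCr8) for 29 of the 38 measured genes. The words searched, on both strands, were the cell cycle gene homology region (CHR, TTTGAA or TTCGAA), the CCAAT box (CCAAT) and an E2F word (TTTCCCGC, TTTCGCGC, TTTGCCGC or TTTGGCGC). In the following 150 bases before the start, written 5′ to 3′ along the gene, capitals mark CHR words and CCAAT boxes that lie whole within the stretch. The 4 genes shown are the proliferation marker, the topoisomerase of mitotic chromosomes, the midzone protein with the lowest difference in COMB and the mitotic kinase itself.
Mki67 (chr1:199952594-199952743, minus strand): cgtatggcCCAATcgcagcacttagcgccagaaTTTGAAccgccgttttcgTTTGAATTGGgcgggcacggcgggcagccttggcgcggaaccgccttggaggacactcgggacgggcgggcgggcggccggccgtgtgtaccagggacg
Top2a (chr10:84473094-84473243, minus strand): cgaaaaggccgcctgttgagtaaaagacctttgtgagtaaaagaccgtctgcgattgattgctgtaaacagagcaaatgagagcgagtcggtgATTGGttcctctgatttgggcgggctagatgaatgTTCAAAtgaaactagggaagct
Prc1 (chr1:143659331-143659480, plus strand): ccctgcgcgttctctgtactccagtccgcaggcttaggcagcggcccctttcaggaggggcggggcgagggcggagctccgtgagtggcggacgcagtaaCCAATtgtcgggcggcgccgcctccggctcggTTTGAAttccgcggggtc
Cdk1 (chr20:19265143-19265292, plus strand): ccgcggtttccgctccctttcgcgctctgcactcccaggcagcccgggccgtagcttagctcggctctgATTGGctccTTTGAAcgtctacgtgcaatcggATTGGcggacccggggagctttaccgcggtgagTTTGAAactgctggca
For the S phase genes Mcm2 and Mcm5, both helicase subunits, capitals mark E2F words only.
Mcm2 (chr4:122918095-122918244, minus strand): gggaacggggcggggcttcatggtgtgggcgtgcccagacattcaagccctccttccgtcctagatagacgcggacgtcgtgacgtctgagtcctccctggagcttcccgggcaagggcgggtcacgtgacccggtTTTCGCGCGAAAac
Mcm5 (chr19:13488663-13488812, plus strand): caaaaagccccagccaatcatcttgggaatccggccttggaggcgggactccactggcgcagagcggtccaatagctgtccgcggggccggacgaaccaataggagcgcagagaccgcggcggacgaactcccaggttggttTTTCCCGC
In Mki67 the CHR word nearest the start overlaps a CCAAT box read on the other strand, and in Mcm2 2 E2F words on opposite strands overlap. A CHR word was found in 12 of 17 promoters of G2 and mitosis genes (70.6%) against 19.7% of all 33469 promoters in the table, and a CHR word together with a CCAAT box in 11 of 17 (64.7%) against 7.95%. An E2F word was found in 6 of 9 S phase promoters (66.7%) and in 1 of 17 promoters of G2 and mitosis genes (5.88%) against 2.14% of all. These matches describe letters in a window and are not measured sites.

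In the COMB group, 10 of the 38 genes were lower than in CTL and 2 were higher (limma, adjusted p under 0.05), while 26 did not pass the test. The genes that fell were Cdk2, Ccne2 and E2f1 of G1/S control, Rrm1 of S phase, and Mki67, Top2a, Ccna2, Bub1, Aurka and Prc1 of mitosis. The genes that rose were Ccnd2 and Cdk4. Among all 12853 genes, 11% were lower and 11% were higher by the same rule, so the share of the 38 that fell was 26.3% and the share that rose was 5.26%. The median log2 difference over the 38 genes was -0.39, against -0.03 over all genes, and 31 of 38 lay below 0, against 54% of all genes. The 3 COMB pools lay wholly below the 3 CTL pools for 11 of 38 genes (28.9%, against 22.1% of all genes) and wholly above them for 3 (against 17.6%).

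With either stimulus alone, at most 1 gene passed the test, and the medians were -0.38 in LPS and -0.45 in HPO. In the LPS group, 1 gene, Prc1, was lower and 0 were higher, against 1.54% and 1.24% of all genes, and at an unadjusted p under 0.05, 11 were lower and 2 higher (against 11.7% and 6.24% of all genes). In LPS 34 of 38 genes lay below 0. In the HPO group limma called 0 of the 38 genes lower and 0 higher, and it called 0% of all genes lower and 0.0311% higher. At an unadjusted p under 0.05, 25 of the 38 were lower in HPO and 0 were higher, against 4.12% and 4.67% of all genes, and the lowest adjusted p was 0.205, for Mcm4. The methods' t-test, run here without pairing, called 0 after Benjamini-Hochberg adjustment and 15 lower without adjustment. With weights for array quality limma called 24 lower and 1 higher. The lowest of these weights, 0.226, fell on HPO rats 3, 5, 12, the highest HPO pool for 32 of the 38 genes. The highest, 6.38, fell on HPO rats 7, 8, 9. In HPO 36 of 38 genes lay below 0. All 3 HPO pools lay below all 3 CTL pools for 25 of 38 genes (65.8%), against 6.8% of all genes, and above them for 0, against 8.19%. For LPS the pools lay wholly below CTL for 15 genes (39.5%, against 18.7% of all genes) and wholly above for 2 (against 12%). These 3 comparisons share the same CTL pools, and the pool of CTL rats 1, 3, 4 gave the highest CTL value for 31 of the 38 genes, so the differences from CTL are not independent of each other.

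**Figure D1:**
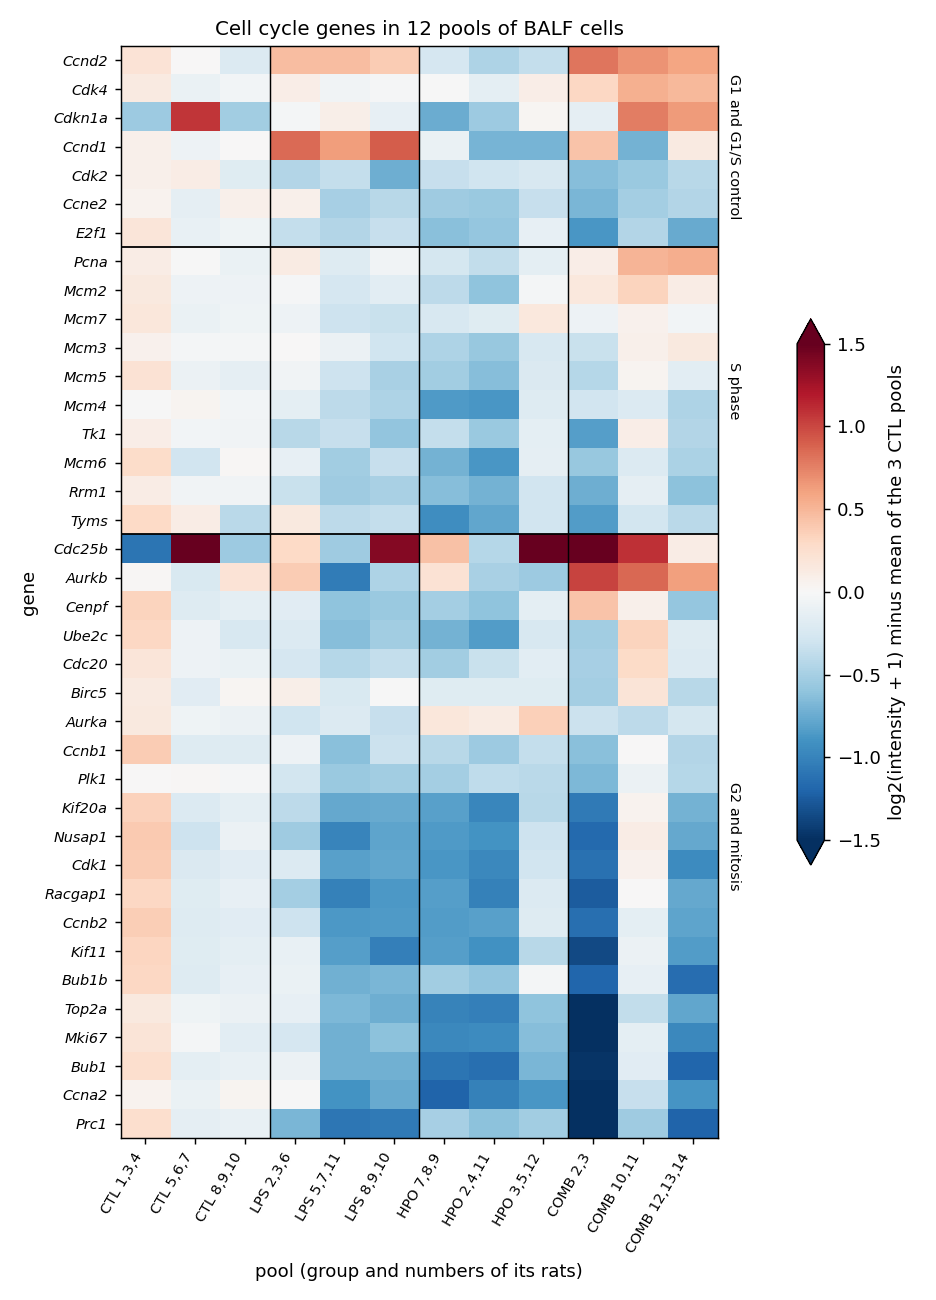
Each row is 1 of the 38 measured genes and each column 1 of the 12 pools, with colour for log2(intensity + 1) minus the mean of the 3 CTL pools (colours end at 1.5 in either direction). Most mitosis genes are blue in LPS, HPO and COMB, except in the pool of COMB rats 10, 11, and Ccnd2 is red in LPS and COMB.

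**Figure D2:**
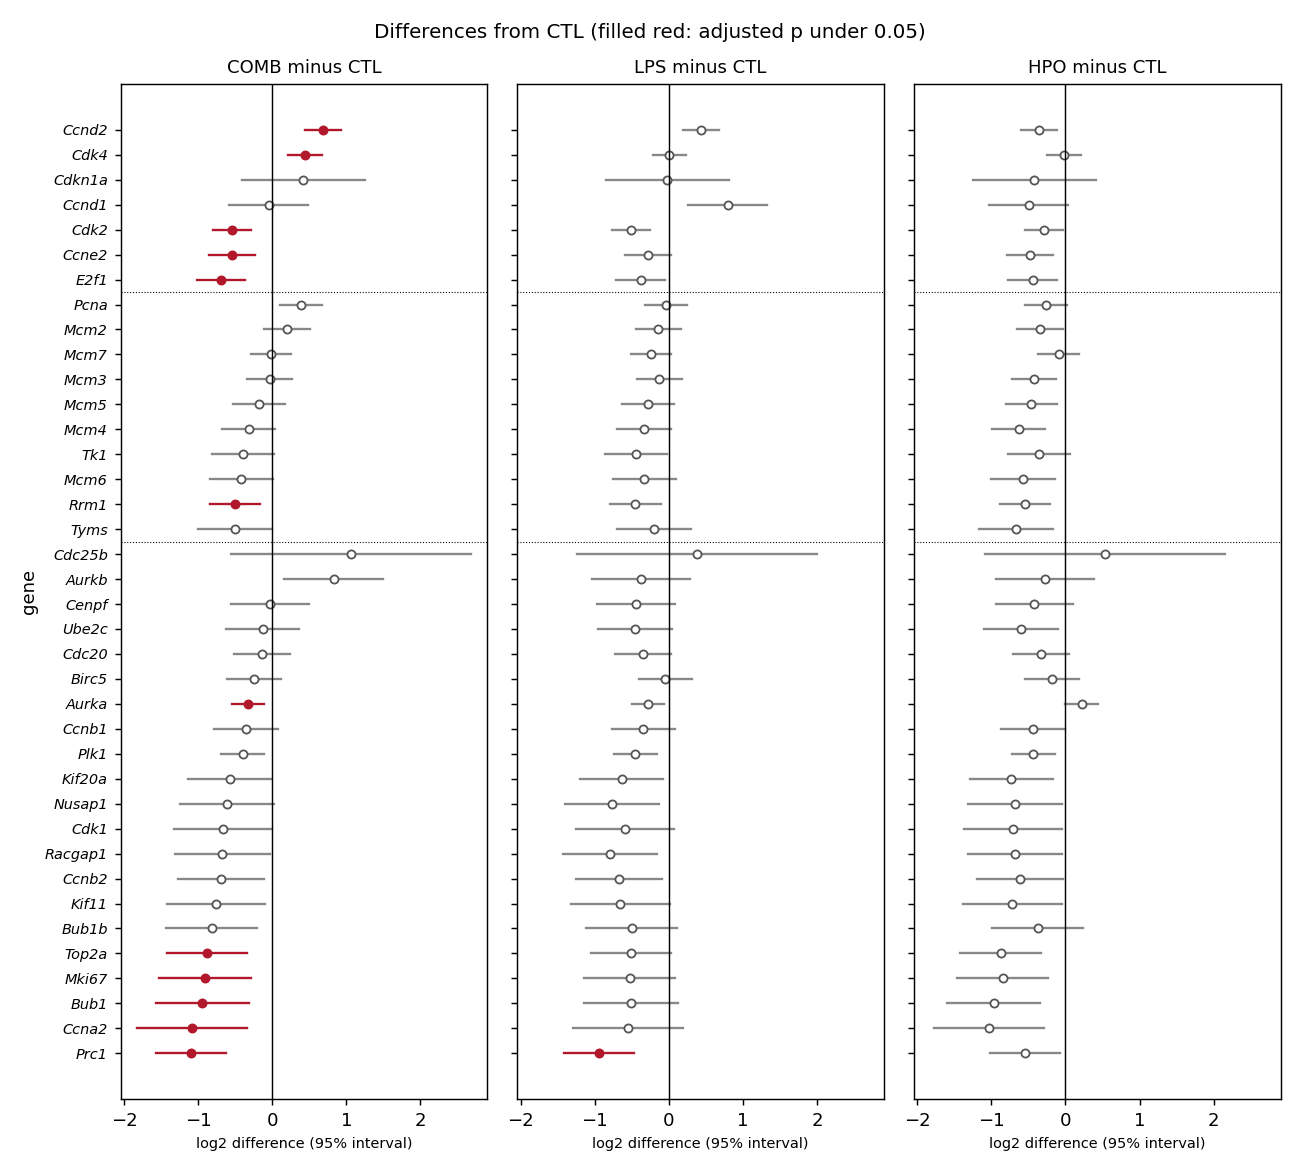
Points are log2 differences from CTL with 95% intervals from limma for the 38 genes in the COMB, LPS and HPO groups (n = 3 pools a group). Filled red points passed the test, 12 in COMB, 1 in LPS and 0 in HPO, and most open points in HPO lie below 0.

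Among the genes of G1 and G1/S control, Ccnd2 and Cdk4 rose in COMB while Cdk2, Ccne2 and E2f1 fell. Ccnd2 (cyclin D2) measured 1108, 969 and 832 in CTL, 1322, 1331 and 1258 in LPS, 807, 697 and 750 in HPO and 1676, 1533 and 1450 in COMB. The COMB pools were the highest of all and the LPS pools came next, with no overlap between these groups and CTL. Its log2 difference from CTL was 0.69 ± 0.11 (SE) in COMB (adjusted p = 0.00135), a ratio of 1.61, 0.44 after LPS alone (adjusted p = 0.0746) and -0.36 in HPO (adjusted p = 0.296). Cdk4, the kinase partner of the D-type cyclins, measured 506, 429 and 446 in CTL, 491, 442 and 452 in LPS, 456, 415 and 493 in HPO and 571, 664 and 642 in COMB. It was higher in COMB than in CTL by 0.44 ± 0.10 (SE, adjusted p = 0.0111), and only the COMB pools stood apart, since the other groups overlapped. Ccnd1 (cyclin D1) measured 1001, 901 and 955 in CTL, 1718, 1466 and 1783 in LPS, 888, 586 and 586 in HPO and 1279, 584 and 1041 in COMB. All LPS pools exceeded all CTL pools, with a difference of 0.79 that did not pass the test (adjusted p = 0.133), while the COMB pools spread on both sides of CTL (-0.05, adjusted p = 0.917, and 0.28 without the pool of rats 10, 11).

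E2f1, Cdk2 and Ccne2 had means below CTL in all 3 exposed groups, and Cdkn1a did not. E2f1, an activating E2F factor, measured 134, 109 and 113 in CTL, 92, 87 and 93 in LPS, 76, 79 and 108 in HPO and 64, 87 and 70 in COMB. Every exposed pool was below every CTL pool, and the difference was -0.69 ± 0.15 (SE) in COMB (adjusted p = 0.00726), -0.38 after LPS alone (adjusted p = 0.25) and -0.44 in HPO (adjusted p = 0.331). Cdk2, the partner of cyclin E, measured 92, 95 and 77 in CTL, 64, 68 and 52 in LPS, 69, 71 and 74 in HPO and 56, 59 and 65 in COMB. It fell by 0.54 on the log2 scale in COMB (adjusted p = 0.00783), with -0.51 in LPS (adjusted p = 0.0505). Ccne2 (cyclin E2) measured 57, 50 and 58 in CTL, 58, 38 and 41 in LPS, 37, 37 and 43 in HPO and 34, 38 and 40 in COMB, a difference of -0.54 in COMB (adjusted p = 0.0201). A dimmer probe set of Ccne2 gave 0.29 in COMB (adjusted p = 0.153), so the probe sets of this gene disagree. Cdkn1a (p21), an inhibitor of the cyclin-dependent kinases, measured 123, 379 and 125 in CTL, 177, 192 and 166 in LPS, 107, 123 and 184 in HPO and 165, 307 and 280 in COMB. Its difference in COMB was 0.42 (adjusted p = 0.494), with 1 CTL pool above all others, whereas its dimmer probe set measured 38, 57 and 21 in CTL and 71, 281 and 279 in COMB and was higher by 2.27 (adjusted p = 0.0295).

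Over the 10 genes of S phase the median difference in COMB was -0.25, and 8 of the 10 lay below 0. Rrm1, the large subunit of ribonucleotide reductase, which makes deoxyribonucleotides, was the 1 gene of this role that passed the test against CTL. It measured 321, 286 and 285 in CTL, 235, 205 and 212 in LPS, 190, 181 and 243 in HPO and 178, 269 and 193 in COMB. All exposed pools were below all CTL pools, and the difference was -0.50 ± 0.16 (SE) in COMB (adjusted p = 0.0433), -0.45 after LPS alone (adjusted p = 0.185) and -0.55 in HPO (adjusted p = 0.24). Pcna, the sliding clamp, measured 2092, 1928 and 1810 in CTL, 2106, 1700 and 1873 in LPS, 1609, 1497 and 1751 in HPO and 2085, 2755 and 2834 in COMB. All HPO pools were below all CTL pools and 2 of 3 COMB pools were the highest of all, and the difference from CTL was 0.39 in COMB (adjusted p = 0.0604) and -0.26 in HPO (adjusted p = 0.575). Mcm2, a subunit of the replicative helicase, measured 254, 217 and 217 in CTL, 226, 191 and 206 in LPS, 174, 150 and 224 in HPO and 255, 288 and 248 in COMB. The 6 helicase genes Mcm2 to Mcm7 had a median of -0.11 in COMB, -0.26 in LPS and -0.44 in HPO, with none past the test in any of these groups. Mcm4, for example, measured 305, 315 and 298 in CTL and 170, 167 and 268 in HPO, a difference of -0.63 (adjusted p = 0.205). Tyms and Tk1, enzymes of thymidylate supply, measured -0.51 and -0.39 in COMB and did not pass the test.

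The 21 genes of G2 and mitosis held 6 of the 10 falls in COMB, with medians of -0.61 in COMB, -0.51 in LPS and -0.60 in HPO. Of these genes 19 lay below 0 in COMB, 20 in LPS and 19 in HPO. Prc1, which bundles the microtubules of the spindle midzone, measured 830, 633 and 647 in CTL (mean 704 ± 110, SD, n = 3), 433, 329 and 334 in LPS, 493, 455 and 486 in HPO and 237, 481 and 303 in COMB (mean 340.3 ± 126). All exposed pools lay below all CTL pools. Its log2 difference was -1.10 ± 0.21 (SE) in COMB (adjusted p = 0.00401), a ratio of 0.467, and -0.94 in LPS (adjusted p = 0.0478), a ratio of 0.52, and it was -0.55 in HPO (adjusted p = 0.424). The call in LPS was lost without any 1 of the 6 CTL and LPS pools. Mki67 (Ki-67), which coats mitotic chromosomes and marks proliferating cells, measured 508, 433 and 395 in CTL, 371, 268 and 290 in LPS, 227, 229 and 285 in HPO and 144, 401 and 227 in COMB. The pool of COMB rats 10, 11 reached into the CTL range, and all LPS and HPO pools stayed below it. The difference was -0.91 ± 0.28 (SE) in COMB (adjusted p = 0.0425), -0.53 after LPS alone (adjusted p = 0.435) and -0.85 in HPO (adjusted p = 0.323). Without that COMB pool the difference was -1.29 (adjusted p = 0.00197), and without COMB rats 2, 3 it was -0.55 (adjusted p = 0.114). Leaving out the highest or the lowest pool of a group moves its mean in this way by construction. The call held in 9 of 20 alternative settings.

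Top2a (topoisomerase II alpha), which untangles replicated chromosomes, measured 281, 244 and 239 in CTL, 234, 159 and 153 in LPS, 126, 125 and 166 in HPO and 89, 196 and 148 in COMB. Every exposed pool was below every CTL pool. The difference was -0.88 ± 0.25 (SE) in COMB (adjusted p = 0.0271) and -0.88 in HPO (adjusted p = 0.24), and a second probe set gave -0.73 in COMB (adjusted p = 0.0161). Ccna2 (cyclin A2) measured 158, 143 and 158 in CTL, 152, 81 and 90 in LPS, 66, 75 and 83 in HPO and 37, 120 and 82 in COMB, and its difference was -1.08 in COMB (adjusted p = 0.0437) with -1.03 in HPO (adjusted p = 0.315). Bub1, a kinase of the spindle checkpoint, measured 229, 173 and 178 in CTL, 180, 116 and 116 in LPS, 89, 87 and 119 in HPO and 69, 170 and 84 in COMB, a difference of -0.94 in COMB (adjusted p = 0.0404) and -0.97 in HPO (adjusted p = 0.272). Without COMB rats 2, 3 the differences in COMB were -0.58 for Top2a and -0.62 for Ccna2, and neither passed the test. In these genes the HPO pools lay close together, and in COMB rats 10, 11 measured higher than both other COMB pools. Cdk1, the mitotic kinase, measured 429, 283 and 293 in CTL, 285, 187 and 192 in LPS, 179, 168 and 269 in HPO and 150, 344 and 170 in COMB. Its difference of -0.67 in COMB did not pass the test (adjusted p = 0.151). Without the pool of rats 10, 11, the highest of COMB for this gene, it was -1.04 (limma, adjusted p = 0.0172). Leaving out the highest pool lowers the difference by construction, so this value does not count as a call. Over 20 alternative settings the difference ran from -1.14 to -0.39, with adjusted p up to 0.398, and was called in 2. Ccnb1 (cyclin B1), its partner, measured 205, 137 and 138 in CTL, 149, 101 and 125 in LPS, 118, 108 and 123 in HPO and 101, 157 and 115 in COMB, a difference of -0.36 in COMB (adjusted p = 0.241).

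Of the Aurora kinases, Aurka lay above 0 in HPO and Aurkb lay above 0 in COMB, unlike most other mitosis genes. Aurka, which acts at spindle poles, measured 348, 299 and 296 in CTL, 254, 273 and 246 in LPS, 353, 340 and 403 in HPO and 250, 238 and 261 in COMB. It was lower in COMB by a small amount (-0.33, adjusted p = 0.0388), and in HPO it was 1 of 2 genes of the 38 above 0 (0.22, adjusted p = 0.519). Aurkb, the kinase of the chromosomal passenger complex, measured 136, 114 and 155 in CTL, 175, 64 and 97 in LPS, 156, 95 and 91 in HPO and 271, 245 and 205 in COMB. The COMB pools were above all 9 others, and the difference from CTL was 0.83 (adjusted p = 0.0798). Cdc25b, a phosphatase that activates Cdk1, varied more between pools of a group than between groups, at 67, 448 and 98 in CTL and 563, 306 and 155 in COMB. The other G2 and mitosis genes (Ccnb2, Cdc20, Birc5, Bub1b, Plk1, Kif11, Kif20a, Nusap1, Cenpf, Ube2c and Racgap1) had differences from -0.82 (Bub1b) to -0.03 (Cenpf) in COMB, and none of these 11 passed the test by its brightest probe set. A dimmer probe set of Nusap1, a spindle protein, was lower in COMB (-0.78, adjusted p = 0.0374).

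**Figure D3:**
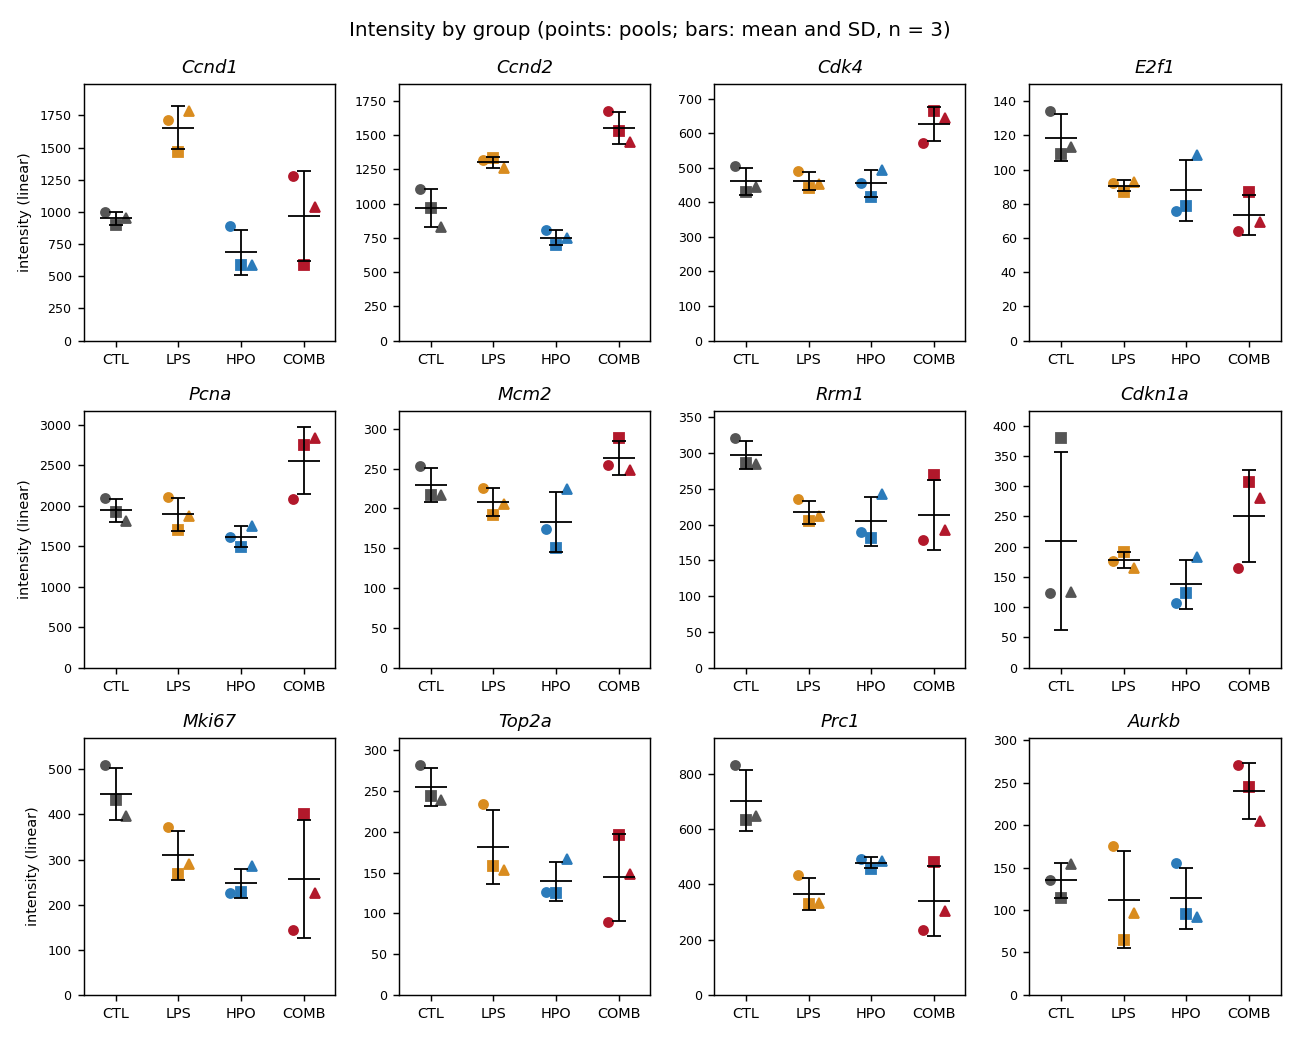
Points are the linear intensities of 12 genes in the 3 pools of each group (circle, square and triangle for the first, middle and last pool in the order given in the text), and bars give the mean and SD (n = 3). The square of the COMB group, rats 10, 11, is the highest of its group for Mki67, Top2a, Prc1, Rrm1 and E2f1 but the lowest for Ccnd1.

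Direct comparison of COMB with the single exposures asked what the second stimulus added. Against LPS, Cdk4 (0.44, adjusted p = 0.0196) and Aurkb (1.20, adjusted p = 0.0255) were higher in COMB and Ccnd1 was lower (-0.84, adjusted p = 0.0446), so 2 of 38 genes rose and 1 fell, against 8.64% and 5.04% of all genes. The difference in Ccnd1 was also called by both of its other probe sets (-1.09 and -0.99, adjusted p = 0.0219 and 0.0165). Against HPO, 5 of 38 genes were higher in COMB, namely Ccnd2 (1.05, adjusted p = 0.000201), Cdk4 (0.46, adjusted p = 0.0112), Mcm2 (0.54, adjusted p = 0.0217), Pcna (0.65, adjusted p = 0.00632) and Aurkb (1.10, adjusted p = 0.0293), and Aurka was lower (-0.54, adjusted p = 0.00376). Among all genes, 9.18% were higher and 9.36% lower. The median over the 38 genes was 0.00 against LPS and 0.08 against HPO. For Mki67 the difference of COMB from HPO was -0.06 with a 95% interval from -0.68 to 0.56, and for Top2a it was -0.01 with an interval from -0.55 to 0.54.

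The interaction is the difference of COMB from LPS less the difference of HPO from CTL, and asks whether hypoxia changed a gene by another amount with LPS than without it. It was called for 0 of the 38 genes in either direction by limma, against 0.156% of all genes higher and 0.0233% lower, and at an unadjusted p under 0.05, 14 were higher and 0 lower, against 8.42% and 5.2% of all genes. The lowest adjusted p was 0.144, for Ccnd2 (0.61), followed by Pcna (0.69, adjusted p = 0.158). With weights for array quality, limma called 10 higher, and without COMB rats 2, 3 it called 1. The median over the 38 genes was 0.50, against 0.01 over all genes, and 35 lay above 0. The medians of its parts were 0.00 for COMB minus LPS and -0.45 for HPO minus CTL. It thus uses the same CTL pools as the differences from CTL and is not independent of them. Mki67 measured 0.47 with a 95% interval from -0.40 to 1.34.

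**Figure D4:**
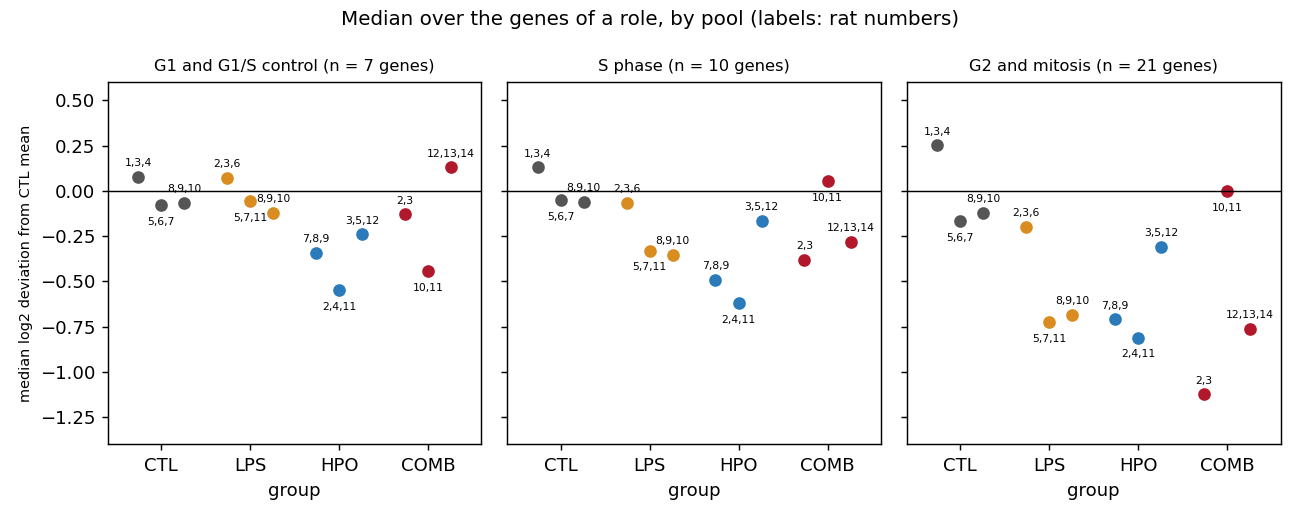
Each point is 1 pool, placed by the median over the genes of a role of log2(intensity + 1) minus the CTL mean, and labelled with its rat numbers. For the 21 genes of G2 and mitosis the COMB pools lie at -1.12, 0.00 and -0.76, and the pools of LPS rats 2, 3, 6 and HPO rats 3, 5, 12 lie above both others of their group.

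Most genes of S phase and of G2 and mitosis shared the same highest pool within a group. The pool of CTL rats 1, 3, 4 was the highest of its group for 31 of the 38 genes, LPS rats 2, 3, 6 for 30, HPO rats 3, 5, 12 for 32 and COMB rats 10, 11 for 28. These same pools were the highest for 9, 9, 10 and 8 of the 10 genes of S phase and for 18, 19, 17 and 17 of the 21 genes of G2 and mitosis, but for 4, 2, 5 and 3 of the 7 genes of G1 and G1/S control. For the 21 genes of G2 and mitosis the median deviation from the CTL mean was 0.25, -0.17 and -0.12 in the CTL pools, -0.20, -0.72 and -0.68 in LPS, -0.71, -0.81 and -0.31 in HPO and -1.12, 0.00 and -0.76 in COMB. The genes are thus not independent of each other, and a count over them rests on 12 pools. Leaving out COMB rats 10, 11, the highest COMB pool for 28 of the 38 genes, lowers the COMB means of those genes by construction. Without that pool, 19 of the 38 genes were lower in COMB than in CTL, among them 9 of the 10 called with it. Ccnd2 and Cdk4 stayed higher. Without CTL rats 5, 6, 7 as well, the CTL pool with the highest T and NK cell sum, 18 genes were lower and 1, Ccnd2, was higher, an alternative chosen after seeing the data. Leaving out any 1 of the other 5 CTL and COMB pools left 3 to 5 genes lower. With each of the 6 CTL and COMB pools left out in turn, Ccnd2, Cdk4, Cdk2, E2f1 and Prc1 kept their calls all 6 times and Ccne2 3 times. Top2a kept its call 2 times, without COMB rats 10, 11 and without COMB rats 12, 13, 14, and Rrm1, Mki67, Ccna2 and Bub1 kept theirs 1 time, without COMB rats 10, 11. Aurka kept its call 0 times. The T and NK cell marker sum was 9117 in COMB rats 10, 11, where mitosis genes were highest, and 7832 in rats 12, 13, 14, where they were low. In COMB rats 2, 3, then 10, 11, then 12, 13, 14 the B cell sum was 303, 1195 and 678. In the same order the neutrophil sum was 12492, 16618 and 10439, so both were highest in rats 10, 11. The alveolar macrophage sum (30438, 26728 and 26778) and the airway epithelium sum (35525, 31061 and 26870) were highest in rats 2, 3. The airway epithelium sum was higher in every exposed pool than in any CTL pool. The part of these cells in the levels of the 38 genes was not tested.

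Further genes of the same pathways were counted from lists. Among 46 other DNA replication genes, 9 were lower and 1 higher in COMB than in CTL (19.6% and 2.17%, against 11% and 11% of all genes), with a median of -0.21. The largest differences were in Slbp (-1.89, adjusted p = 0.00195), which binds histone mRNA, Hells (-1.26, adjusted p = 4.16e-05), a chromatin remodeller, Uhrf1 (-1.08, adjusted p = 0.018), which keeps up DNA methylation, and Orc3 (-1.04, adjusted p = 0.00252) of the origin recognition complex. The gene that rose was Orc2 of the same complex (0.50). Among 60 other mitosis genes, 11 were lower and 1 higher (18.3% and 1.67%), with a median of -0.50, led by the condensin subunits Smc2 (-1.56, adjusted p = 0.000716) and Smc4 (-1.05, adjusted p = 0.00133), by Depdc1 (-1.09) and by Ect2 (-1.05), an activator of cleavage. The gene that rose was Cdca7 (0.53). In LPS and in HPO limma called 0 genes of either list, with 11 and 14 of the replication genes and 30 and 30 of the mitosis genes lower at an unadjusted p under 0.05 (against 11.7% and 4.12% of all genes), and with medians of -0.23 and -0.25 for replication and -0.50 and -0.51 for mitosis.

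Upstream of these, 3 of 19 other G1 and E2F genes were lower in COMB than in CTL and 2 were higher, shares of 15.8% and 10.5% that lie near the 11% and 11% of all genes. The retinoblastoma family genes Rb1 (-0.80, adjusted p = 8.93e-05) and Rbl1 (-0.98, adjusted p = 0.000316) and the E2F partner Tfdp2 (-0.88, adjusted p = 0.00196) fell, while E2f5, a repressive E2F, rose (0.82, adjusted p = 0.00486). In LPS, Tfdp2 (-0.72, adjusted p = 0.0382) and Rbl2 (-0.58, adjusted p = 0.0422) fell, 10.5% of the list against 1.54% of all genes. Of 25 inhibitors and p53 targets, 4 rose and 2 fell in COMB, 16% and 8% and thus also near the shares of all genes, with Fas (0.94, adjusted p = 0.0139), a death receptor, Gadd45g (0.79, adjusted p = 0.0304) and Mdm2 (0.74, adjusted p = 0.000561), the ligase that degrades p53, among the rises and Ccng2 (-0.70, adjusted p = 0.00907) among the falls. In LPS, Gadd45a fell (-0.87, adjusted p = 0.00538), 4% of the list against 1.54% of all genes. It was also the other of the falls in COMB (-0.62, adjusted p = 0.00344). Of 13 macrophage growth signals and their factors, 3 fell in COMB (23.1%, against 11% of all genes), namely Pparg (-1.47, adjusted p = 2.98e-05), a factor that alveolar macrophages need, Klf4 (-0.92, adjusted p = 0.00316) and Csf1r (-0.72, adjusted p = 0.0029), the receptor of the macrophage growth factor CSF1. Pparg (-0.77, adjusted p = 0.012) and Klf4 (-0.91, adjusted p = 0.0238) also fell in LPS, 15.4% of the list against 1.54% of all genes. Klf2 of this list was not called against CTL. By limma it was higher in COMB than in LPS (1.35, adjusted p = 0.0221) and than in HPO (1.16, adjusted p = 0.0336). It was the 1 gene of the list higher in each of these comparisons, against 1 and 3 lower (8.64% and 9.18% of all genes higher, 5.04% and 9.36% lower). In HPO limma called 0 genes of these 3 lists, with 5 of 19, 1 of 25 and 2 of 13 lower at an unadjusted p under 0.05, against 4.12% of all genes.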

How the data were processed

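Pools of RNA from BALF cells were hybridised to 12 Affymetrix arrays. The authors deposited a linear intensity for every probe set of every array. The method of normalization is not given in the sources used here. Array medians ran from 32.72 to 35.61, so the values were used as deposited, as log2(intensity + 1), with arrays rather than read depth setting the precision. Groups came from the sample labels, and 0 columns were unmatched.

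Of 31099 probe sets, 57 controls were left out, and 25692 that lay above the 20th percentile of their array in at least 3 arrays were tested. The platform annotation names 1 gene for 20832 probe sets, several for 436 and none for 9831. A gene was represented by its brightest tested probe set among those naming it alone. limma 3.58.1 (R 4.3.3) fitted 4 group means (8 residual and 3.94 prior degrees of freedom), and p-values were adjusted (Benjamini-Hochberg) over all tested probe sets, with a threshold of 0.05. The fit was tested on simulated data. The study's methods defined differential expression by fold change, a criterion not used here, and named a paired test without giving the pairs of pools, so the methods' t-test was run unpaired as an alternative. The genes and lists were chosen with earlier results of these data known. Values by pool are given for up to 5 called genes per role with the largest difference and for 9 genes fixed by name (Mki67, Top2a, Pcna, Mcm2, Ccnb1, Cdk1, Cdkn1a, Ccnd1, Ccnd2). Cdk4, Aurka, Mcm4 and Cdc25b were added after their values were seen. Of the other lists, up to 4 called genes with the largest difference were named per comparison with CTL, beside Orc2, Cdca7, Klf2 and, in COMB, Gadd45a. Genes of these lists were also called between COMB and LPS and between COMB and HPO, and apart from Klf2 those calls are not named. The other marker lists (monocyte, B cell, alveolar epithelium, erythroid with platelet, and mast cell with dendritic cell) had 4 of 8, 0 of 5, 6 of 11, 1 of 8 and 0 of 7 measured genes higher in COMB than in CTL and 1, 0, 0, 0 and 0 lower, against 11% of all genes in each direction. Figures were drawn with matplotlib.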

Additional observations from a re-analysis of the deposited data

How the results depend on the processing

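Counts of the 38 genes called in each comparison, and their medians, were recomputed under each alternative. The median kept its sign under every alternative for COMB, LPS and HPO against CTL and for the interaction, and ran from -0.56 to -0.29, from -0.47 to -0.28, from -0.56 to -0.39 and from 0.30 to 0.63. Between COMB and LPS it ran from -0.19 to 0.19 and between COMB and HPO from -0.11 to 0.34 (0.34 with array weights). With 10 genes lower in COMB than in CTL as deposited, fits of only these groups left 4, and leaving out 1 pool left 3 to 19, the highest without COMB rats 10, 11. The methods' t-test gave 6 lower unadjusted, and after Benjamini-Hochberg adjustment it gave 0 in each direction in every comparison where limma had made a call. Without COMB rats 10, 11 and CTL rats 5, 6, 7, chosen after seeing the data, 1 was higher and 18 were lower than in CTL, 0 in each direction against LPS, and 3 higher and 3 lower against HPO. In LPS against CTL, where 1 was lower, 0 were lower with quantile normalization (1 higher), with arrays centred, with no filter, and without any 1 pool (0 to 0), and 2 were lower with a pseudocount of 16 (1 higher), with the filter in all arrays, with the mean of a gene's probe sets and with weights for the number of rats. Trended and robust variances gave 1 higher, fits of only these groups 1 higher and 5 lower, the methods' t-test unadjusted 2 higher and 13 lower, and array weights 2 higher and 9 lower. In HPO against CTL, array weights gave 1 higher and 24 lower, resting on weights from 0.226 (rats 3, 5, 12) to 6.38 (rats 7, 8, 9), fits of only these groups gave 1 lower, and the methods' t-test unadjusted gave 15 lower. In COMB against LPS, 0 were lower with no filter, with trended and robust variances, with only these groups (1 higher) and by the methods' t-test unadjusted (4 higher), and leaving out 1 pool gave 0 to 2 lower and 0 to 2 higher. Against HPO, array weights gave 10 higher, only these groups 3 higher, and the methods' t-test unadjusted 2 lower, and leaving out 1 pool gave 3 to 6 higher and 1 to 3 lower. For the interaction, array weights gave 10 higher, and leaving out 1 pool gave 0 to 1 higher. Other alternatives stayed within 1.5 times these counts. Cause was not tested, other than that fewer pools or groups were fitted. Differences near 0 changed sign. Ccnd1 in COMB against CTL was 0.24 without both pools named above and ran from -0.29 to 0.28 without 1 pool. In LPS against CTL, Cdkn1a was 0.049 with quantile normalization, 0.23 with the mean of its probe sets and 0.30 with array weights, and ran from -0.29 to 0.52 without 1 pool. Pcna was 0.018 with quantile normalization and 0.058 with array weights, and ran from -0.12 to 0.034. Cdkn1a in HPO against CTL was 0.062 with the mean of its probe sets and ran from -0.69 to 0.11.

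Rat numbers are shared between CTL and LPS pools. Over all tested probe sets, deviations of pools with shared numbers did not correlate (0.039, -0.00764 and -0.00159), so the numbers were not taken to pair the samples. The correlation was not computed for the 38 genes alone. In these, CTL rats 1, 3, 4 and LPS rats 2, 3, 6, which share 1 number, were the highest of their groups for 31 and 30 genes. With the replicate block by shared rat numbers, 1 gene was higher and 10 were lower in LPS than in CTL, and 736 probe sets were called in all, against 525 without it.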
